A study of Homo sapiens with 4 samples.

Results

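The expressed long intergenic RNAs were the 65 genes that the deposited expression table classes as lincRNA (long intergenic non-coding RNA) and whose mean over the 4 libraries was at least 5 FPKM, out of 7629 lincRNA genes and 58735 genes in all. FPKM is the number of sequenced fragments scaled to the length of the gene and to the total of the library. The genes were chosen by their mean level over the same libraries that are compared below, so their high level is a property of the choice and not a result. Among the other lincRNA genes, 3612 had no read in any library and 491, the 65 included, reached a mean of 1 FPKM. For comparison, 7663 protein-coding genes reached 5 FPKM. By name, 4 of the 65 were SNHG genes (small nucleolar RNA host genes) and 7 were numbered LINC genes. A further 33 carried the name of a sequenced clone, 10 of which have a newer symbol, and 21 had another gene name.

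The study sequenced 1 RNA library from each of 4 cultures of colorectal cancer lines: HCT116 adherent, HCT116 spheroids, LOVO adherent and LOVO spheroids, all labelled wild type (WT). Adherent cells grew in RPMI-1640 medium with serum and without drug. Spheroids, floating balls of cells taken as a culture enriched for stem-like tumour cells, grew on non-adhesive dishes in serum-free DMEM/F12 medium with B27, N2, bFGF and EGF and, according to the methods of the study, with oxaliplatin, a platinum drug; the labels give a treatment of 1 mg/ml without a drug name, and the methods give the same figure in μg/ml. Growth form, medium and drug therefore cannot be told apart, and with 1 library per condition there is no replicate of any. In such bulk samples fewer cells of a type and less RNA per cell cannot be told apart either.

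Each library held between 15483569 and 20429147 reads on genes. The labels were checked against marker genes. Libraries labelled HCT116 had the epithelial genes EPCAM at 85.6 and 79.3 FPKM, CDH1 at 31.1 and 31.1 and the intestinal regulator CDX2 at 3.84 and 3.12, in adherent cells and spheroids. In libraries labelled LOVO, EPCAM was at 0.930 and 1.499, CDH1 at 0.117 and 0.00805 and CDX2 at 0, while the connective tissue genes LUM (31.4 and 50.4) and DCN (10.4 and 9.97) were present. The keratins KRT8 (188.8 and 81.6) and KRT18 (121.9 and 98.8) were also present there. Of 9 colorectal epithelial markers, 6 and 7 reached 1 FPKM in the libraries labelled HCT116, with a summed level of 1754 and 1288, and 3 and 4 in those labelled LOVO, with 326.7 and 186.9. Of 6 fibroblast markers, 1 reached 1 FPKM in each library labelled HCT116, and 4 and 5 did so in those labelled LOVO. The marker in HCT116 was COL1A1, at 5.51 and 15.5 FPKM in adherent cells and spheroids, against 9.89 and 6.10 in LOVO. Of the 4 fibroblast markers with a mean of at least 1 FPKM, 4 were higher in LOVO than in HCT116 in adherent cells. In spheroids 3 were higher in LOVO and 1, COL1A1, was lower. Of 4 endothelial markers, 1 and 2 reached it in adherent and spheroid cells labelled LOVO, PECAM1 at 6.35 FPKM in the spheroids, and of 5 immune markers none reached it anywhere. KRT19 was the highest of the epithelial markers in both libraries labelled HCT116, at 808 and 543 FPKM, but in neither labelled LOVO. All 7 epithelial markers with a mean of at least 1 FPKM were lower in LOVO than in HCT116 in each growth form. The libraries labelled LOVO thus held KRT8 and KRT18 but lacked EPCAM, CDH1 and CDX2 at the level of a colorectal epithelium. LOVO is used below as the name of the label, and values are given for each line separately, except for the limma effects, which pool the lines.

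Long intergenic RNAs are transcribed from their own genes between protein-coding genes and are not translated into a known protein. Some stay in the nucleus: NEAT1 is the scaffold of paraspeckles, nuclear bodies that hold RNA-binding proteins, and MALAT1 lies in nuclear speckles, where splicing factors gather. Others leave the nucleus: NORAD binds the PUMILIO proteins, repressors of messenger RNA, and thereby protects chromosome stability. SNHG genes carry small nucleolar RNAs (snoRNAs) in their introns; snoRNAs guide chemical modification of ribosomal RNA, and the spliced host RNA that remains is often short-lived. Many other lincRNAs, such as UCA1 and PURPL, are known for restriction to some tissues or tumours.

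Sequence features that the choice of members did not use are shown first. NORAD (ENSG00000260032, chr20:36045622-36050960, minus strand, a single exon of 5339 bases) is known for many copies of the PUMILIO binding site, TGTA followed by any base and then ATA. A search for these letters on the transcript strand found 15 in the NORAD transcript and 16 in that of HCG11 (ENSG00000228223, chr6:26521709-26527404, plus strand, a single exon of 5696 bases), another of the 65 genes. The next highest count among the 491 lincRNA genes with a mean of at least 1 FPKM was 6, in NEAT1, and 10.4% of those genes had at least 1. Among all 14422 genes of that level with a transcript, 3 had 15 or more. A stretch of NORAD with 2 sites next to each other and the aligned stretch of HCG11 are printed because these are the letters that the count rests on, with the sites in capitals (GENCODE 29 transcripts, GRCh38, chr20:36049467-36049556, minus strand, and chr6:26523110-26523195, plus strand).
NORAD: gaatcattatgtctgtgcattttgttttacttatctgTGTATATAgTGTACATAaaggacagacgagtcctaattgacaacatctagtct
HCG11: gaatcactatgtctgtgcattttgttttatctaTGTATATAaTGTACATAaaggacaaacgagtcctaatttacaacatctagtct
The alignment of the transcripts ran from base 1 to base 5338 of NORAD and from base 7 to base 5672 of HCG11. It held 4913 identical bases, 340 mismatches and 498 gap bases, an identity of 93.5% outside gaps, and 12 of the sites stood at aligned positions in both. The longest identical stretch was 114 bases, and 4.04% of the 50-base words of HCG11 also occurred in NORAD, so that a small part of the reads could come from either gene. A match to the site is a description and not evidence of binding.

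Promoter sequences from RefSeq (GRCh38.p14, 250 bases before to 50 after each start) were found for 24 of the 65 genes. Genes for ribosomal proteins and other parts of the translation machinery usually start transcription at a C within a run of pyrimidines (C and T), the 5' TOP motif. A C at the annotated start, followed by at least 4 more C or T, occurred in 65.2% of 66 ribosomal protein genes, in 27.8% of 18 promoters of listed snoRNA host genes, in 4.07% of all 35116 promoters and in 0 of the 20 promoters of expressed lincRNAs outside the SNHG list described below. Allowing the run to begin within 5 bases of the start gave 77.3%, 50%, 21.1% and 5%. SNHG15, a further SNHG gene of the 65, had no promoter entry. The listed host genes with a run within 5 bases were lower in spheroids of each line. Of those without one, GAS5, SNHG1, SNHG3, SNHG11, SNHG20 and SNHG21 were also lower in each line. EPB41L4A-AS1 was not lower in HCT116, and SNHG10 and SNHG26 were not lower in LOVO. Whether the run is related to the levels was not tested. The windows of 100 bases around the start of 3 SNHG genes are printed, 50 bases to each side. These genes have the lower levels in spheroids given below. Capitals mark the pyrimidine run, which begins at the start in SNHG4 (chr5:139274051-139274150, plus strand) and SNHG19 (chr16:2155309-2155408, minus strand) and within 5 bases of it in SNHG8 (chr4:118278712-118278811, plus strand).
SNHG4: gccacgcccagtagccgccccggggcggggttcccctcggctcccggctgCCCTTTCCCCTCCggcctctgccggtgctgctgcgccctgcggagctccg
SNHG8: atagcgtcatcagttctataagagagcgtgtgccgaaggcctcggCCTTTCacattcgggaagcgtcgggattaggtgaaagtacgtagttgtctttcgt
SNHG19: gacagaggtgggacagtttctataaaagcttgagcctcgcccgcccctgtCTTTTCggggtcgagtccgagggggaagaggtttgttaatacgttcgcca
Of the motifs bound by stress regulators, TGATGNAA (ATF4) occurred in 0 and TGACNNNGC (NRF2) in 4 of the 24 promoters, searched on both strands, against 3.62% and 13.3% of all promoters.

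The 65 genes made up a small and unequal part of the RNA. In HCT116 they took 0.168% of the reads on genes in adherent cells and 0.317% in spheroids, and in LOVO 0.410% and 1.12%. The share was thus higher in the spheroids than in the adherent cells of each line. NEAT1 and MALAT1 alone took 7.03%, 11.1%, 13.7% and 31.8% of the summed FPKM of the 65 genes, in the same order. Their part of the reads was larger, since their exons span 22767 and 8829 bases. In LOVO they had 43391 and 6553 reads in adherent cells and 137480 and 34240 in spheroids. The next highest count of the set in LOVO spheroids was 9831, for AL161431.1, so the higher share there came mostly from NEAT1 and MALAT1. Their median mean level was 8.38 FPKM, 44 of them lay below 10 FPKM, and the 5 highest held 38.7% of the summed mean. Genes of the set were short, with a median exonic length of 923 bases (range 110 to 22767) against 5072 for protein-coding genes with a mean of at least 1 FPKM, so that a given FPKM rests on fewer reads. Each of 16 genes reached 5 FPKM in all 4 libraries. By line, 27 reached it in at least 1 library of both, 33 in libraries labelled LOVO alone and 5 in HCT116 alone. The counts per library were 31 and 27 in adherent and spheroid HCT116 cells and 49 and 55 in those of LOVO.

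**Figure D1:**
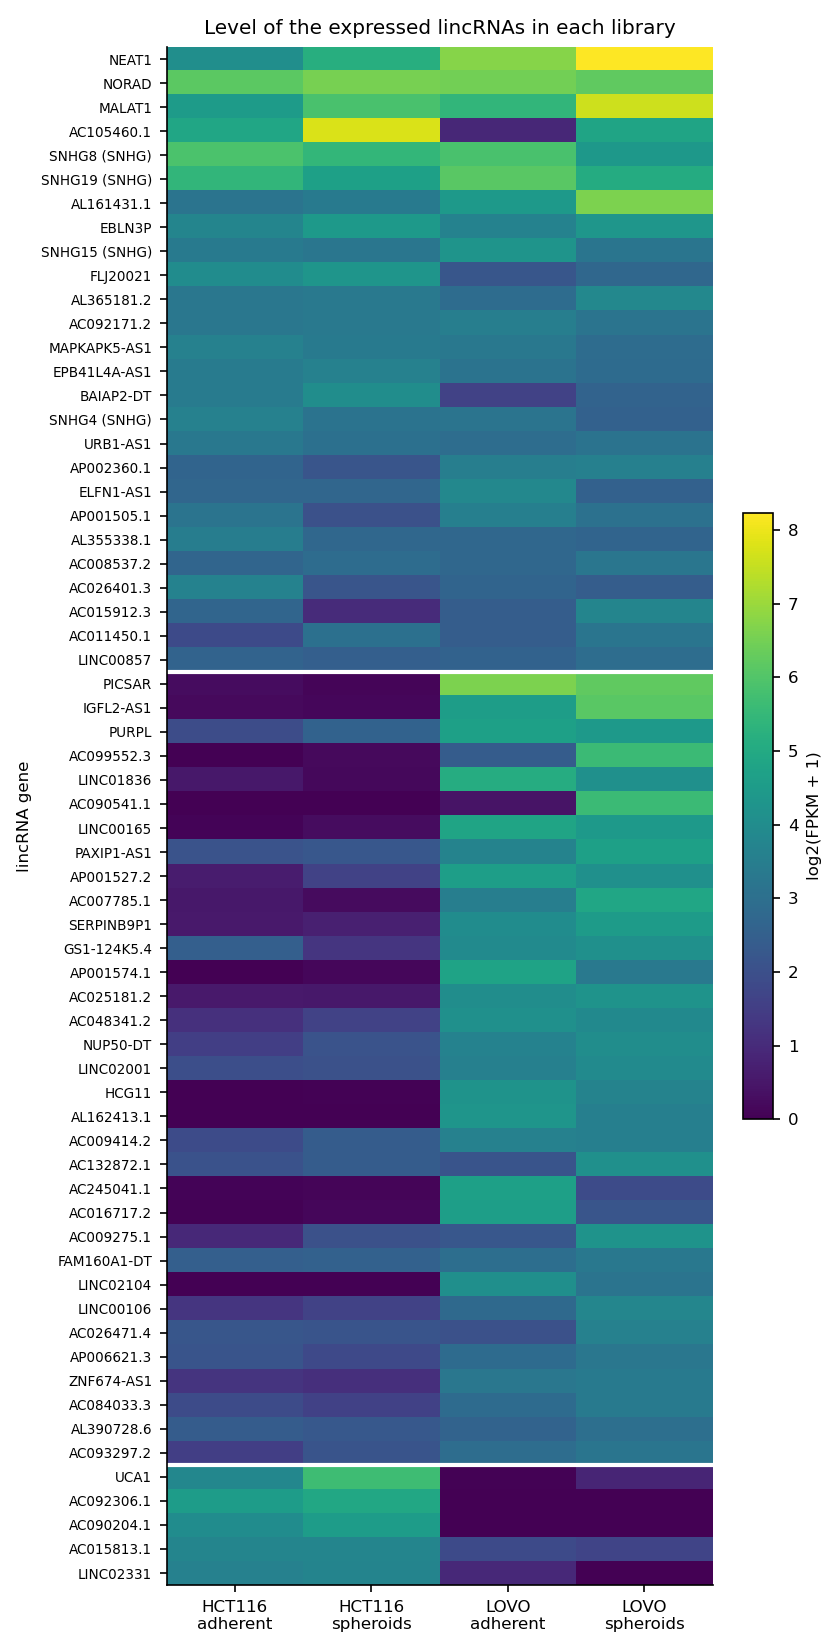
Level of 64 of the 65 lincRNAs in the 4 libraries, as log2(FPKM + 1) in colour, 1 library per column, with SNHG genes marked. White lines separate 26 genes that reached 5 FPKM in both lines (top), the 33 that did so in LOVO alone (middle) and the 5 in HCT116 alone (bottom), and the middle block is dark in both HCT116 columns.

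NEAT1 and MALAT1, the nuclear RNAs, had higher values in spheroids than in adherent cells, whichever the line. NEAT1 (ENSG00000245532, chr11:65422774-65445540, plus strand) had 15.9 FPKM in adherent and 34.9 in spheroid HCT116 cells and 106 and 300.1 in those of LOVO, from 7399, 13350, 43391 and 137480 reads. MALAT1 (ENSG00000251562, chr11:65497688-65506516, plus strand), which begins 52148 bases beyond the end of NEAT1, had 21.9, 57.0, 41.4 and 193 FPKM in the same order. For both genes the spheroid library exceeded the adherent library of its line. On the log2(FPKM + 1) scale used throughout, which understates changes of low genes, the fold change of spheroids over adherent cells was 1.08 in HCT116 and 1.49 in LOVO for NEAT1, and 1.34 and 2.19 for MALAT1. The 95% counting intervals of the log2 ratio, exact and taken from the reads without a pseudocount, were 1.09 to 1.17 and 1.48 to 1.51 for NEAT1 and 1.32 to 1.43 and 2.18 to 2.26 for MALAT1. Such intervals cover counting error and not the spread between cultures. Limma, with the cell line as a covariate and the lines standing in for replicates, gave an effect of 1.29 ± 0.27 (SE) for NEAT1 and 1.77 ± 0.32 for MALAT1, with an adjusted p of 0.46 for each, so neither passed. Mitochondrial transcripts took 6.77% and 11.1% of reads in adherent and spheroid HCT116 cells and 3.65% and 3.97% in those of LOVO, and their part in these differences was not tested.

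The proteins of paraspeckles did not share this direction. Of the 7 protein genes listed, 5 were lower in HCT116 spheroids and 7 in LOVO spheroids. SFPQ, a core protein that binds NEAT1, had 62.0 and 39.7 FPKM in adherent and spheroid HCT116 cells and 68.8 and 41.1 in those of LOVO. Its partner NONO had 87.5 and 83.0, then 121 and 63.3. HNRNPK, which acts on NEAT1 isoform choice, showed the largest difference of the 7 in LOVO, -1.20, with 201 and 87.0 FPKM. In LOVO, 1 of the 7 was no longer lower when FPKM were rescaled to TPM.

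The SNHG genes were lower in spheroids. SNHG8 (ENSG00000269893, chr4:118278709-118279823), the host of SNORA24, had 58.9 and 43.2 FPKM in adherent and spheroid HCT116 cells and 57.5 and 20.03 in those of LOVO. SNHG19 (ENSG00000260260, chr16:2154797-2155358), the host of SNORD60, had 41.5 and 24.5, then 68.3 and 32.6. SNHG15 (ENSG00000232956, chr7:44983023-44986961), the host of SNORA9, had 9.23 and 8.42, then 18.3 and 8.20. SNHG4 (ENSG00000281398, chr5:139274102-139284899), the host of SNORA74A and SNORA74D, had 11.2 and 7.70, then 7.97 and 4.95. In each of the 4 genes the spheroid value lay below the adherent value of its line. Their fold changes lay between -0.73 and -0.12 for HCT116 and between -1.47 and -0.59 for LOVO, and 3 of 4 in HCT116 and 4 of 4 in LOVO had a counting interval below 0, against 35% and 42% of the 14429 genes with a mean of at least 1 FPKM that make the background. SNHG4 shares 626 exonic bases with MATR3 on the same strand (mean 0.0367 FPKM) and 118 with SIL1 on the other (15.8). Limma gave an effect of -0.89 ± 0.25 (SE) for SNHG19 and -0.96 ± 0.34 for SNHG8, each with an adjusted p of 0.46.

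Most snoRNA host genes of a longer list were also lower in spheroids. Names were matched by the symbol in the deposited table, so a gene listed only under another symbol was not counted. Of 35 names listed, 21 reached a mean of 1 FPKM, 5 of them among the expressed lincRNAs, and 20 were lower in HCT116 spheroids and 19 in LOVO spheroids, against 53.4% and 53.5% of the background. Counting intervals lay below 0 for 16 and 17. The median fold change was -0.44 in HCT116 and -0.69 in LOVO, against -0.03 and -0.06 over the background. Without the expressed lincRNAs, 16 of 16 were lower in HCT116 spheroids and 14 of 16 in LOVO spheroids. GAS5, the host of many box C/D snoRNAs and itself a growth arrest transcript, had 101 and 84.6 FPKM in HCT116 and 66.7 and 36.3 in LOVO. SNHG1 had 62.8 and 44.8, then 96.2 and 41.9. SNHG6 stood lower by little, with 142 and 120 FPKM in HCT116 and 54.2 and 52.1 in LOVO. SNHG10 and SNHG26 were the 2 genes not lower in LOVO, with 5.50 and 7.05 and with 0.446 and 0.492 FPKM. The gene not lower in HCT116 was EPB41L4A-AS1, an expressed lincRNA that hosts SNORA13, with 9.83 and 11.3 FPKM there and 7.70 and 6.44 in LOVO, but 49.6% of its exonic bases are shared with EPB41L4A on the opposite strand. SNHG28, below 1 FPKM and so not counted, was not lower either, with 0.0969 and 0.235, then 0.0964 and 0.877 FPKM. Also below 1 FPKM, SNHG22 was not lower in either line, with 0.132 and 0.275, then 0.0645 and 0.134, from 3 to 12 reads. SNHG14, from 2 and 4 reads in HCT116, was lower in LOVO alone, and SNHG25 was lower in each line. LINC02001, the host of SNORD7, is on the list only under its newer symbol SNHG30 and was therefore not counted. It was not lower in either line, with 2.90 and 3.09, then 11.1 and 14.2 FPKM. Rescaling to TPM moved the median of all genes in LOVO from -0.06 to 0.10, and 17 of the 21 then remained on the lower side there with a median of -0.57, the same count as with a TMM-style scaling. All 4 SNHG genes among the expressed lincRNAs were lower in both lines under each of the 5 scalings and pseudocounts tried, although the number below -1 in LOVO went from 3 to 1 under TPM and TMM-style scaling.

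**Figure D2:**
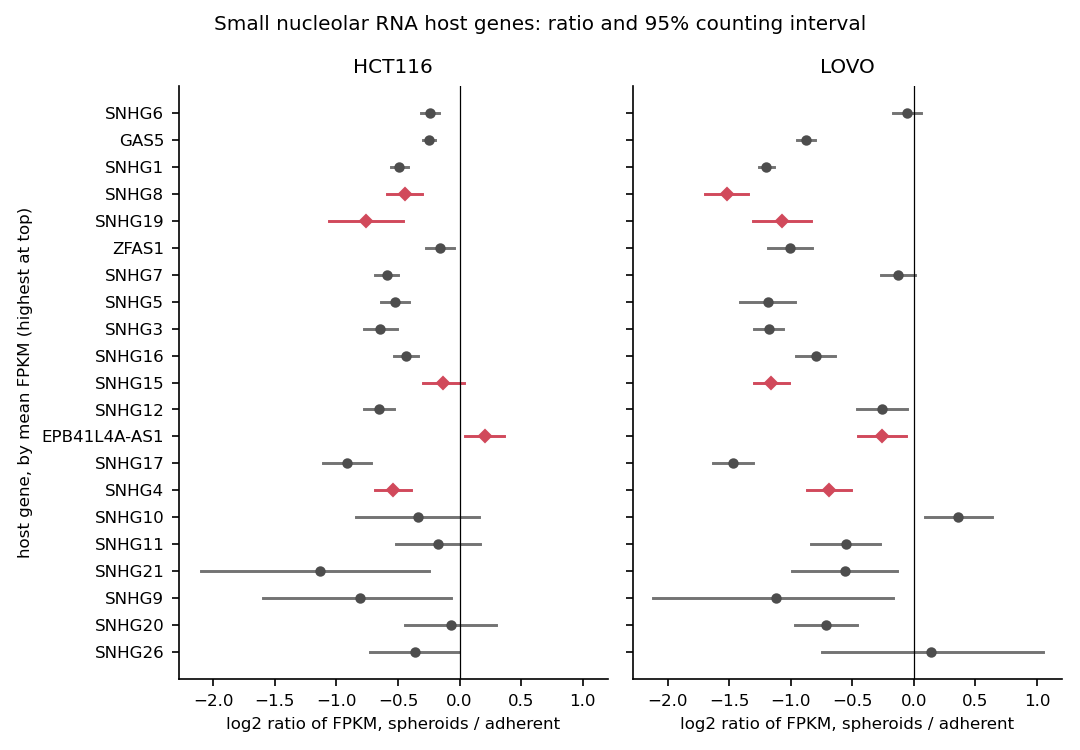
Log2 ratio of FPKM in spheroids over adherent cells for the 21 snoRNA host genes with a mean of at least 1 FPKM, HCT116 on the left and LOVO on the right, with bars for the 95% counting interval. Red diamonds are the 5 expressed lincRNAs among them, grey circles the other host genes, and nearly all points lie left of 0.

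Genes of related machinery were read in the same way. The proteins that assemble with snoRNAs, among them FBL, the methylase of the box C/D particles, and DKC1, the pseudouridine synthase of the box H/ACA particles, were lower in 11 of 11 cases in each line, with medians of -0.51 and -0.70. FBL had 128 and 54.7 FPKM in HCT116 and 64.4 and 32.6 in LOVO. Of 82 ribosomal protein genes, 79 were lower in HCT116 and 82 in LOVO, with medians of -0.50 and -1.17. Factors of nonsense-mediated decay, the pathway that degrades many spliced SNHG RNAs, were lower in 8 of 16 cases in HCT116 and in 14 of 16 in LOVO, against 53.4% and 53.5% of the background, with medians of -0.01 and -0.37.

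NORAD and HCG11 shared sequence but not the pattern of levels. NORAD had 70.1 and 92.7 FPKM in adherent and spheroid HCT116 cells, then 87.4 and 73.3 in those of LOVO, the narrowest range among the 5 highest genes. It was higher in HCT116 spheroids and lower in LOVO spheroids, by 0.40 and -0.25. HCG11 had 0 and 0.0313 FPKM in HCT116, from 0 and 3 reads, and 17.8 and 11.9 in LOVO, from 1823 and 1359 reads. The level in adherent LOVO cells was at least 691-fold higher than in adherent HCT116 cells, where the floor of 3 reads in the library stands in for the count of 0. HCT116 libraries held 7624 and 8318 NORAD reads beside those 0 and 3 HCG11 reads.

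UCA1, PURPL, PICSAR and IGFL2-AS1 were the other named genes of high level or large difference. UCA1 (ENSG00000214049, chr19:15828206-15836326), a lincRNA of bladder and colorectal tumours linked to drug resistance, had 13.1 and 50.6 FPKM in adherent and spheroid HCT116 cells from 1110 and 3527 reads, and 0.0269 and 0.790 in those of LOVO from 2 and 66 reads. Its fold change was 1.87 in HCT116, with a counting interval of the log2 ratio of 1.85 to 2.05. In LOVO it was 0.80, where the interval of 2.97 to 7.95 shows how far the added constant of 1 compresses a low gene. UCA1 shares 489 exonic bases with LINC01764 on the other strand, which had a mean of 0.118 FPKM. PURPL (ENSG00000250337, chr5:27472292-27496401) had 2.73, 4.96, 24.6 and 20.6 FPKM in the order given for NORAD. PICSAR (ENSG00000275874, chr21:44999208-45004727), described in squamous skin cancer, had 0.201 and 0.0812 in HCT116, from 3 reads and 1 read, and 97.8 and 73.9 in LOVO. IGFL2-AS1 (ENSG00000268621, chr19:46189166-46203083) had 0.168 and 0.102, then 23.1 and 69.4.

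Known relatives of these genes were read in lists. Of 29 long RNAs studied in colorectal cancer, 18 reached 1 FPKM. In HCT116 spheroids 4 of them were above 1 (NEAT1, MALAT1, UCA1 and MIR31HG) and none below -1, against 2.19% and 3.33% of the background. In LOVO spheroids 2 were above 1 (NEAT1 and MALAT1) and 3 below -1 (LINC01133, DANCR and CASC9), against 8.57% and 7.85%. DANCR, a host of snoRNAs that was not counted with the SNHG list, had 18.4 and 15.7, then 30.7 and 7.76 FPKM. None of the 65 genes is a miRNA host by its symbol, and 15 such host genes of any class, all outside the 65, reached 1 FPKM. Of these, 8 were lower in HCT116 spheroids and 5 in LOVO spheroids, against 53.4% and 53.5% of the background, with medians of -0.08 and 0.10. The 9 miRNA processing genes had medians of -0.07 and -0.27.

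Clone-named genes held the largest differences between spheroids and adherent cells. AC105460.1 (ENSG00000250920, chr4:103550927-103559127, minus strand) had 28.5 and 215 FPKM in adherent and spheroid HCT116 cells, from 482 and 3004 reads, and 0.873 and 27.0 in those of LOVO, from 13 and 451 reads. It was the most abundant of the 65 genes in HCT116 spheroids, and its fold changes of 2.88 and 3.90 were the only pair above 2 in both lines, which 0.0347% of the background reached. Limma gave 3.39 ± 0.34 (SE), with an unadjusted p of 0.000222 and an adjusted p of 0.46. AC009275.1 (LINC03060, chr7:134416290-134432453) had 0.936 and 3.16, then 3.75 and 17.9 FPKM, and fold changes of 1.10 and 1.99. Its nearest protein-coding gene, AKR1B1, which encodes aldose reductase and lies 9897 bases away, had 17.3 and 45.4, then 165 and 3424 FPKM.

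In LOVO alone the clone-named genes reached farther. AC090541.1, whose span overlaps that of CSGALNACT1 on the opposite strand, had no reads in either HCT116 library and 0.358 and 48.4 FPKM in LOVO, from 3 and 455 reads, a fold change of 5.19. AC099552.3 had 4.25 and 47.9 FPKM in LOVO. Its nearest protein-coding gene, INSIG1, a brake on cholesterol synthesis 92587 bases away, had 34.3 and 292. AL161431.1 (LINC03061, chr13:109269634-109278512) had 7.95 and 9.43 FPKM in HCT116 and 20.3 and 96.0 in LOVO, and AC132872.1 had 3.20 and 4.28, then 3.36 and 16.7. In the other direction, AC245041.1 had 24.6 and 2.65 FPKM in adherent and spheroid LOVO cells and AC016717.2 had 23.4 and 3.55. Their fold changes of -2.81 and -2.42 were the 2 below -2, against 0.943% of the background, and both genes were near 0 in HCT116, at 0.0594 and 0.0721 and at 0.0286 and 0.116. Both reached 5 FPKM in adherent LOVO cells alone, so their drop is in part built into the choice. The genes next to them in the order were SNHG8, AP001574.1 (26.2 and 9.01 FPKM) and ELFN1-AS1 (13.5 and 4.87).

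Counted over the set, 6 of 65 genes had a fold change above 1 in HCT116 spheroids (NEAT1, MALAT1, AC105460.1, UCA1, AC011450.1 and AC009275.1), against 2.19% of the 14429 background genes. Below -1 in HCT116 were 4 genes (AC015912.3, AC026401.3, GS1-124K5.4 and AP001505.1), against 3.33%. These had 6 to 52 reads in the spheroid library and 39 to 207 in the adherent one. In LOVO spheroids 14 genes were above 1 and 7 below -1, against 8.57% and 7.85%. A gene can enter the set through 1 library, so these counts are in part built into the choice. Only 1 library, labelled LOVO, reached 5 FPKM for 7 genes, all among these calls. They were AC090541.1, AC099552.3, AC132872.1, AC009275.1 and AC026471.4 (spheroids) and AC245041.1 and AC016717.2 (adherent cells). Above 1 in both lines were 4 genes (NEAT1, MALAT1, AC105460.1 and AC009275.1), against 0.645% of the background, and below -1 in both were 0, against 0.88%. Among the other genes at the ends of the order, AL355338.1 had 10.3 and 5.80 FPKM in HCT116 and a fold change of -0.73, and AC026471.4 had 3.10 and 11.4 FPKM in LOVO. The median fold change of the set was 0.07 in HCT116 and 0.20 in LOVO, beside -0.03 and -0.06 over the background. The 491 lincRNA genes with a mean of at least 1 FPKM had medians of 0.07 and 0.23.

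With the lines standing in for replicates, limma called 0 of 14429 genes and 0 of the 65 between spheroids and adherent cells at an adjusted p under 0.05, with 1 residual degree of freedom. At an unadjusted p under 0.05 there were 1545 genes (10.7%) and 11 of the 65, which were AC105460.1, MALAT1, AC009275.1, NEAT1, UCA1, AC011450.1, BAIAP2-DT and EBLN3P with positive effects and SNHG19, SNHG8 and AP001505.1 with negative ones. EBLN3P, a lincRNA with a pseudogene symbol, had 12.5 and 20.5 FPKM in HCT116 and 11.5 and 18.9 in LOVO, a fold change of 0.67 in each line. Across the 65 genes the fold changes of the lines had a Pearson correlation of 0.35, against 0.30 over the background, given as a description since genes are not independent replicates.

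**Figure D3:**
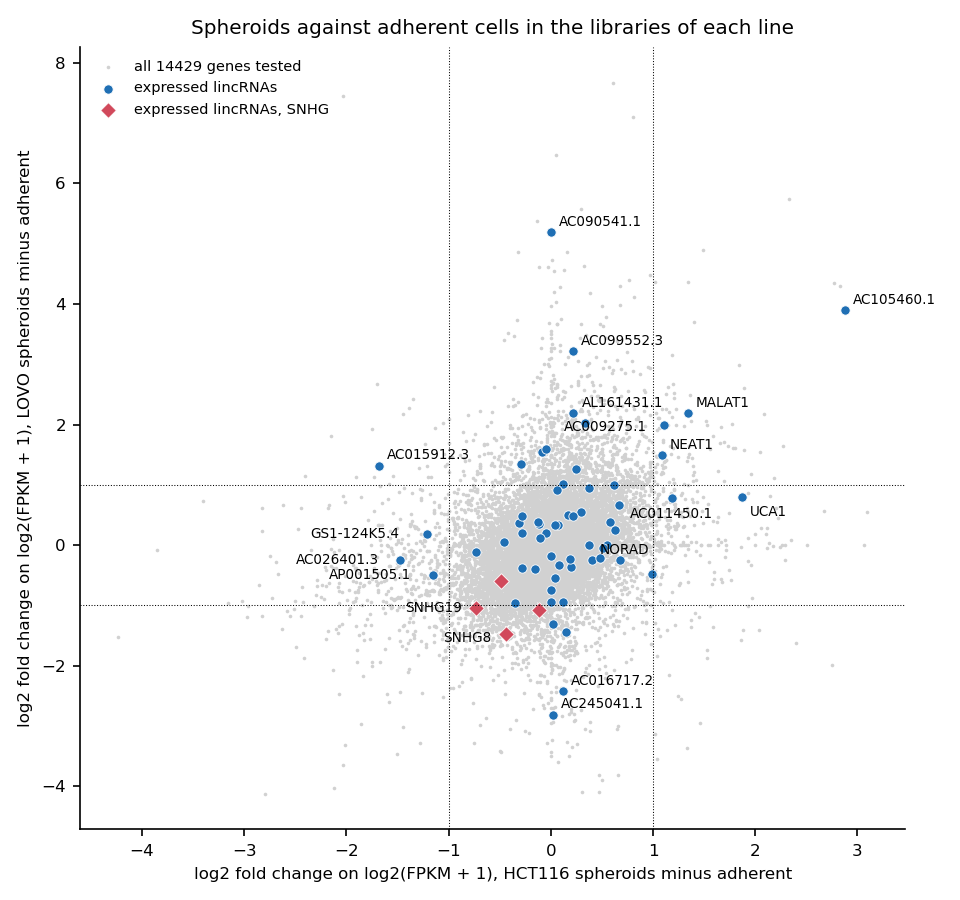
Log2 fold change of spheroids over adherent cells in HCT116 (horizontal) and LOVO (vertical), on log2(FPKM + 1), with 1 library per condition. Grey points are the 14429 background genes, blue circles the expressed lincRNAs, red diamonds the SNHG genes among them and dotted lines mark 1 and -1; NEAT1, MALAT1, AC105460.1 and AC009275.1 lie above 1 on both axes, and the 4 diamonds lie below 0 on both.

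The lines differed more than the growth forms. The median size of the difference, sign ignored, was 0.29 and 0.55 between growth forms in HCT116 and LOVO, and 1.46 and 1.86 between lines in adherent cells and spheroids, against 0.67 and 0.65 between lines over the background. A gene can enter the set through 1 line alone, so a large difference between lines is in part built into the choice. With this in view, 17 of the 65 were higher in LOVO by more than 2 in both growth forms and 5 were lower, beside 3.07% and 3.35% of the background. Limma with the growth form as a covariate called 7 of the 27 genes that reached 5 FPKM in both lines at an adjusted p under 0.05, a share near the 24.7% of the background. Higher in LOVO among these 7 were NEAT1 (2.87 ± 0.27 SE, adjusted p = 0.0071), AL161431.1 (2.24 ± 0.51, 0.039), MALAT1 (1.31 ± 0.32, 0.045) and AP002360.1 (1.14 ± 0.27, 0.041). Lower were AC105460.1 (-3.46 ± 0.34, 0.0074), FLJ20021 (-1.68 ± 0.24, 0.015) and BAIAP2-DT (-1.62 ± 0.25, 0.018).

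Several genes were read in 1 line only. AC092306.1 (chr19:44803701-44804010) had 22.5 and 29.4 FPKM in adherent and spheroid HCT116 cells, from 142 and 153 reads, and no reads in LOVO, so that adherent and spheroid HCT116 cells were at least 41.6-fold and 61.1-fold higher. Its nearest protein-coding gene CBLC, an epithelial ubiquitin ligase 3049 bases away on the same strand, had 29.3 and 31.2 FPKM in HCT116 and 0 in LOVO. AC090204.1 had 14.9 and 22.3 FPKM in HCT116 and none in LOVO. LINC02331 had 11.2 and 12.3, then 0.926 and 0, and its nearest protein-coding gene BMP4, a growth factor, had 69.4 and 119, then 2.51 and 1.45. In the other direction, AL162413.1 and LINC02104 had no reads in HCT116 and had 18.8 and 10.8 and 16.3 and 7.97 FPKM in LOVO. AL162413.1 is 110 bases long, and its values rest on 37 and 24 reads.

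The other genes with a LOVO excess above 3 in both growth forms were PICSAR, IGFL2-AS1, HCG11, LINC00165 (0.0595 and 0.217, then 26.9 and 20.7 FPKM), LINC01836 (0.451 and 0.137, then 33.2 and 16.7), AC025181.2 (0.489 and 0.445, then 15.4 and 17.8), SERPINB9P1 (0.471 and 0.652, then 15.1 and 21.7), AP001574.1 and AC007785.1 (0.443 and 0.179, then 10.6 and 28.6), whose span overlaps that of IGFL2-AS1. LINC00165 lies 4023 bases from PICSAR on chromosome 21 on the same strand. The neighbouring AP001505.1, 15088 bases from LINC00165, was present in all 4 libraries at 8.08, 3.09, 10.8 and 7.40 FPKM. SERPINB9P1 went against its neighbour SERPINB9, a serpin that inhibits granzyme B, which had 25.2 and 13.1 FPKM in HCT116 and near 0 in LOVO. On the HCT116 side, AC015813.1 followed the genes named above at 12.4 and 12.5, then 2.63 and 2.21 FPKM, then FLJ20021 at 15.03 and 18.7, then 3.60 and 5.72, and BAIAP2-DT at 9.78 and 15.6, then 2.08 and 5.11.

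**Figure D4:**
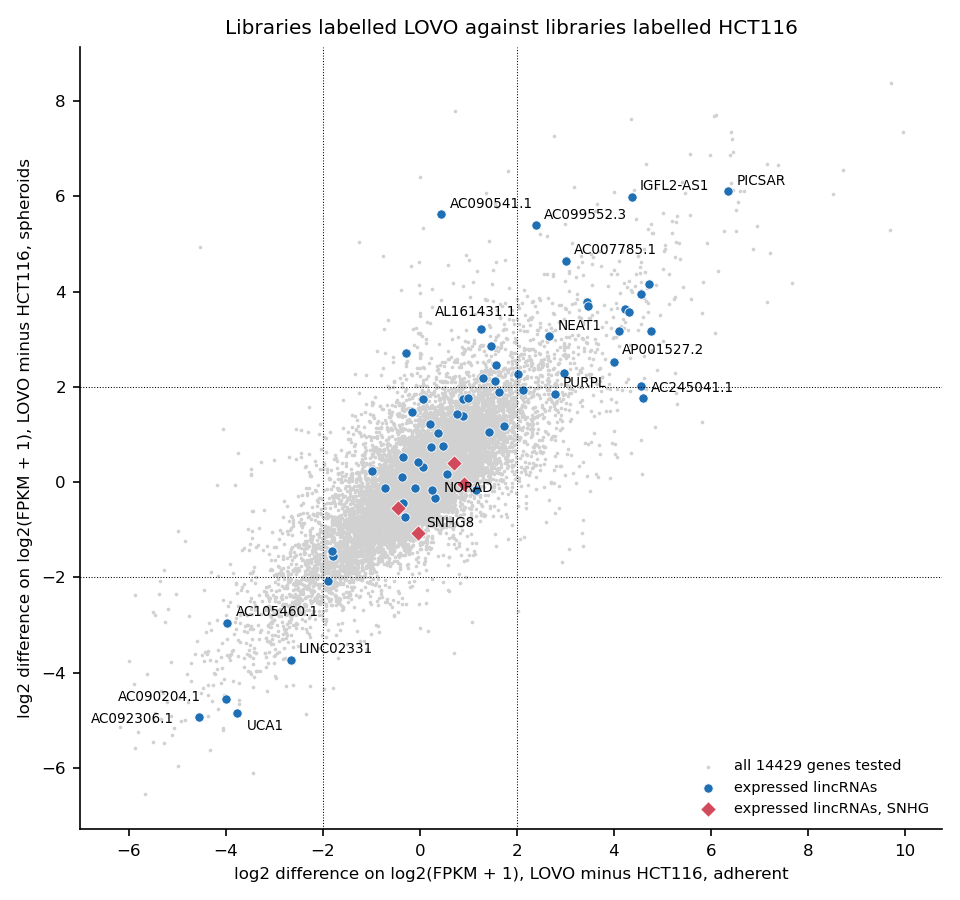
Log2 difference between libraries labelled LOVO and HCT116 in adherent cells (horizontal) and spheroids (vertical), on log2(FPKM + 1), with 1 library per condition. Grey points are the 14429 background genes, blue circles the expressed lincRNAs, red diamonds the SNHG genes among them and dotted lines mark 2 and -2; among the lincRNAs, PICSAR lies farthest to the upper right, and AC092306.1 lies at the lower left.

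Many of the genes lie close to a protein-coding gene. The nearest such gene with a mean of at least 1 FPKM was at a median distance of 3430 bases, 39 of 65 had it within 10 kb and 10 overlapped its span. Across the 65 pairs, which share libraries and may share a promoter region, the difference between lines of gene and neighbour had a Pearson correlation of 0.51 in adherent cells and 0.51 in spheroids, and the fold change between growth forms one of 0.29 in HCT116 and 0.30 in LOVO. These distances and correlations were not taken for other genes, so no background value stands beside them. FAM207A was the neighbour of PICSAR, LINC00165 and AP001505.1, so the pairs repeat a neighbour. AP001527.2, which starts 4 bases from YAP1 on the opposite strand, had 0.544, 2.08, 23.6 and 16.7 FPKM in the order given for NORAD, beside 12.8, 21.3, 185 and 145 for YAP1, the effector of Hippo signalling. BAIAP2-DT, 241 bases from BAIAP2, went the other way and was higher in spheroids of each line where BAIAP2 was lower, at 14.1 and 9.01, then 4.08 and 2.45. PAXIP1-AS1, with 3.28 and 3.67, then 11.7 and 24.6 FPKM, was above 1 in LOVO where PAXIP1 stood at 5.02 and 5.03.

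Exons of 12 of the 65 genes overlap those of another gene, by more than 10% of their length in 5 (UCA1, MAPKAPK5-AS1, EPB41L4A-AS1, SNHG4 and AC011450.1), and since it is not stated here whether the counting used strand, reads of such genes cannot be assigned with certainty. At the threshold, the members just inside were AC093297.2, AL390728.6 and AC084033.3, with means of 5.06, 5.06 and 5.11 FPKM. The lincRNA genes just outside were LINC01315, AC005392.2 and AC254633.1, with means of 4.98, 4.98 and 4.97.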

How the data were processed

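In all, 4 libraries, 1 per condition, were sequenced, and the authors deposited 1 FPKM value per gene and library, with gene length, coordinates and biotype. Their aligner and counter are not given in the sources used here, and edgeR was the tool of their own comparison. The labels name the mouse builds GRCm38 and mm10, but all gene identifiers and the spans of all 65 genes match GENCODE 29 (human, GRCh38), so that build was used. The FPKM were whole multiples of the value of 1 read (within 0.01) for 100% of values, and these reads served for depth and counting intervals alone.

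Values were compared as log2(FPKM + 1), over the 14429 genes with a mean of at least 1 FPKM. A fold change past 1 (between lines, past 2 in both growth forms) was counted. Counting intervals are exact (Clopper-Pearson, 95%). Limma 3.58.1 (trend, Benjamini-Hochberg, two-sided) used cell line or growth form as covariate, the lines or growth forms standing in for replicates, and no count model was fitted. The scripts were tested on simulated data.

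Named genes were the SNHG genes, the 10 highest by mean, those past 1 in both lines, the 8 highest and lowest fold changes within a line, the 8 largest differences between lines in each direction, 3 genes on each side of the 5 FPKM minimum and list members. Others (EBLN3P, PAXIP1-AS1, LINC02104, LINC02001, AC007785.1 and neighbours) were chosen after their values were seen. The ribosomal protein genes, taken by symbol, were added as a list later. The genes and lists were chosen with earlier results of these data known. Results on 1 gene of the set and on some gene lists and motifs are not reported here.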

Additional observations from a re-analysis of the deposited data

Results flagged for a closer look

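The fold change of spheroids over adherent cells, on log2(FPKM + 1), pointed in opposite directions in the lines for 6 of the 65 genes whose counting intervals lay on opposite sides of 0, as they did for 14% of the 14429 background genes. With 1 library per condition the difference between the lines was not tested. NORAD had 0.40 in HCT116 and -0.25 in LOVO. PURPL had 0.68 and -0.24, and AP001527.2, next to YAP1, had 0.99 and -0.47. EPB41L4A-AS1, the snoRNA host gene, had 0.19 and -0.23. AC016717.2 had 0.12 and -2.42, with 3 and 10 reads behind the HCT116 value. AC015912.3 went the other way, with -1.68 in HCT116, from 39 and 6 reads, and 1.32 in LOVO, from 27 and 86 reads.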

How the results depend on the processing

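Only 1 library per condition was at hand, so leaving out a replicate was not run. No pairing by replicate number was possible because the groups share fewer than 2 replicate numbers. Limma with the cell line as a covariate did compare spheroids with adherent cells of the same line. The median fold change in LOVO was 0.20 and became 0.55 with a minimum of 10 FPKM for the genes of the set. The set held 65 genes, but 21 with a minimum of 10 FPKM and 491 with a minimum of 1, so counts under these settings have unlike totals. Fold changes above 1 in HCT116 numbered 6, and 12 with a pseudocount of 0.01, 1 past a size of 2 and 19 with a minimum of 1 FPKM. Those below -1 in HCT116 numbered 4, and 7, 0 and 8 under the same settings, and 0 with a minimum of 10. Over the background, those below -1 in HCT116 went from 480 to 849 with the pseudocount of 0.01. Above 1 in LOVO there were 14, against 6 past 2, 8 with a minimum of 10, 79 with a minimum of 1 and 43 with 5 FPKM in any library. Below -1 in LOVO there were 7, against 2, 3, 29 and 23. Past 2 in LOVO, the background held 1.81% above and 0.943% below. Restricting the set to the 27 genes at 5 FPKM in both lines, an alternative chosen after seeing the data, left 6 and 4 in LOVO. Above 1 in both lines were 4 genes, and past 2 there was 1. Higher in LOVO by more than 2 were 17, against 28 past 1, 7 with a minimum of 10 and 29 with a minimum of 1. Lower in LOVO were 5, against 8, 3 and 20, and 17 with 5 FPKM in any library. Limma called 39 of the 65 between lines, a count that the choice of genes through 1 line in part fixes, against 15, 174 and 98 with a minimum of 10, of 1 and with 5 FPKM in any library, and called 0 between growth forms under each setting run. At an unadjusted p under 0.05, 1545 genes differed between growth forms, and 163 without the line as a covariate. Of 90 fold changes of named lincRNAs, 85 kept their sign under all 5 pseudocounts and scalings, and the 28 past 1 all did.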
